A study of Homo sapiens with 9 samples.

Results

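The plasminogen activators and the serpins around them were followed in multicellular tumor spheroids (MTSs) of PC3 cells, an established line from a bone metastasis of prostate carcinoma. The 8 genes were taken by name from the gene tables, out of 27111 genes: PLAU and PLAT, which encode the urokinase-type and tissue-type plasminogen activators; PLAUR, the cell-surface receptor of urokinase; SERPINE2 and SERPINB2, inhibitors of the activators; SERPINB5 (maspin), a serpin that does not inhibit proteases in the classical way; and SERPINA1 (alpha-1-antitrypsin) and SERPINA3 (alpha-1-antichymotrypsin), secreted inhibitors of neutrophil-type serine proteases. All 8 are listed in the tables of all 9 libraries.

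Plasminogen activators cut the zymogen plasminogen into plasmin, a protease that degrades fibrin and parts of the extracellular matrix. Urokinase works mostly on the cell surface, bound to its receptor, and tissue-type activator mostly on fibrin. Serpins stop their target proteases by a bait loop that traps the protease in a covalent complex, which clearance receptors then take up. In prostate and other carcinomas the system is studied for its part in invasion.

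The comparison was between 3 PC3 lines, with 3 libraries each. Empty cells carried the empty pSIN lentiviral vector, NF-YAl cells the same vector with the long isoform of NF-YA, and NF-YAs cells the vector with the short isoform, and all the lines, controls included, had gone through puromycin selection. NF-YA is the DNA-binding subunit of NF-Y, a trimer that recognises the CCAAT box, and the isoforms differ by an alternatively spliced exon in the activation domain. The inserts were murine cDNAs, 18 MTSs were pooled for each library, and the libraries came from independent experiments. Replicates were lettered A to C for Empty and NF-YAs, while NF-YAl had A, B and D.

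Total expected counts per library ran from 18076979 to 27163976. NFYA stood at 89.2 to 96.7 CPM (counts relative to the library total, scaled by TMM) in Empty, at 287 to 383 with NF-YAl and at 254 to 264 with NF-YAs, so the NF-YA libraries lay above Empty. Gene-level counts do not tell the long isoform from the short one, the inserts were murine while the row is human NFYA, and part of their reads may not have aligned. Epithelial KRT8 and KRT18 and the mesenchymal VIM were present throughout, KLK3 had no count in any library, and EPCAM (0.945 to 5.3 CPM) and CDH1 (1.94 to 9.02 CPM) were low. Of the leukocyte, endothelial and stromal markers PTPRC, CDH5, DCN and COL1A2 stayed at or below 1.7 CPM, while the endothelial PECAM1 lay between 1.59 and 7.32 CPM. Several of these markers moved with the groups, in both directions. KRT8 was higher in Empty (268 to 313 CPM) than in both NF-YA lines (109 to 181 CPM), and CDH1 and PECAM1 were lowest in NF-YAs. EPCAM was higher in NF-YAl (3.35 to 5.3 CPM) and NF-YAs (2.19 to 3.13) than in Empty (0.945 to 1.05), and COL1A2 was highest in NF-YAs (0.846 to 1.7 CPM, against 0.119 to 0.276 in Empty). Their part in the results below was not tested. The library NF-YAl D stood apart: 5 short noncoding RNAs (RN7SL1, RN7SL2, RN7SK, SNORD3A and RMRP) held 14.3% of its TPM (transcript levels corrected for length, relative to the library total), against 33.8% to 45.2% in the other 8 libraries, which raises the TPM of all other genes in it. Differences between groups are therefore given in CPM, and TPM is used for the order of genes within a library.

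Since NF-Y reads CCAAT, the windows around the annotated starts of the genes are shown first, from 250 bases before to 50 bases after each start. From RefSeq 10 such windows were used, for 7 of the 8 genes. No window of PLAT was among them, so its start was not examined. Each of the 10 matched GRCh37, the build of the deposited files, at a single place. The windows below are those with a motif match, and both starts of SERPINA1, the gene with opposite responses in the lines. Capitals mark CCAAT (or ATTGG, the other strand), the AP-1 motif TGANTCA and TATAAA (or TTTATA). No matches overlapped.
PLAU, upstream start, chr10:75670118-75670417, plus strand: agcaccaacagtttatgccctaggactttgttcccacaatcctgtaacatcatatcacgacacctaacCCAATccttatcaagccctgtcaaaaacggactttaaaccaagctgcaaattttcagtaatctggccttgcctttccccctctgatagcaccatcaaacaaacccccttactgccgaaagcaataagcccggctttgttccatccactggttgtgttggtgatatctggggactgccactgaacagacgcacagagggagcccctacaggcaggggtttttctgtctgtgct
SERPINE2, downstream start, chr2:224896146-224896445, minus strand: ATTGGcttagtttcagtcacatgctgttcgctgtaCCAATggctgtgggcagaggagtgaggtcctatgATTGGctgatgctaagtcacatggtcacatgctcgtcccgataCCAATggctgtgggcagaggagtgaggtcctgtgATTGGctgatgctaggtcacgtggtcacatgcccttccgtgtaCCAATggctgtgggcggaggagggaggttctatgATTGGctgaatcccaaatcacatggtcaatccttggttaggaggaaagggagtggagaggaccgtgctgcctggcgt
SERPINB2, chr18:61554689-61554988, plus strand: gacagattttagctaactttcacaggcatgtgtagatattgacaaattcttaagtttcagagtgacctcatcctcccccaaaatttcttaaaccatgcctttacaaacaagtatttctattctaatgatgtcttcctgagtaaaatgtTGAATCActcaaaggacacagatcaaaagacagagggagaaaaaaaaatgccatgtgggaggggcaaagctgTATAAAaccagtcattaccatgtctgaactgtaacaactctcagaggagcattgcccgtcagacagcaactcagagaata
SERPINB5, chr18:61143941-61144240, plus strand: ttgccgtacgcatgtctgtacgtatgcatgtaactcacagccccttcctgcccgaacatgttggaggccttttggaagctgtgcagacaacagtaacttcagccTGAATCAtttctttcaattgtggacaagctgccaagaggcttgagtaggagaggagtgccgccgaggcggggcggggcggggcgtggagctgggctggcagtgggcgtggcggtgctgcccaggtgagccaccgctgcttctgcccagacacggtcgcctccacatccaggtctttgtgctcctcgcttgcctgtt
PLAUR, chr19:44174272-44174571, minus strand: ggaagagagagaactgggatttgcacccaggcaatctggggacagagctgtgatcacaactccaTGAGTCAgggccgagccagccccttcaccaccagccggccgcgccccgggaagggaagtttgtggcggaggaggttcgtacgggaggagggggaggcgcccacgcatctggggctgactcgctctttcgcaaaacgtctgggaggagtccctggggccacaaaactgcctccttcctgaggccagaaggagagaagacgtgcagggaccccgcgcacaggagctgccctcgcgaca
SERPINA1, upstream start, chr14:94856923-94857222, minus strand: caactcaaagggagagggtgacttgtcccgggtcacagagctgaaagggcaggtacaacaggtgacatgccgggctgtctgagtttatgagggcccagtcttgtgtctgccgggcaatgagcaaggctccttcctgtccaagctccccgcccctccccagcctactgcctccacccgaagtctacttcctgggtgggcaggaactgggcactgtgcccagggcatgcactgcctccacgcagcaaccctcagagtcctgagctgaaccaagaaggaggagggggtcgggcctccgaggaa
SERPINA1, downstream start, chr14:94854890-94855189, minus strand: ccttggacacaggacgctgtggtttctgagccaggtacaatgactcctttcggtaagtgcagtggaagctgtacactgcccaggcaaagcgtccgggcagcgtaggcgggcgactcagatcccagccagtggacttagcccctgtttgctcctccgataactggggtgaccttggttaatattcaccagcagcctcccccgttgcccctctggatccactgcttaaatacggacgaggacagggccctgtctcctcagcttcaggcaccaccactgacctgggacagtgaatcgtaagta

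A CCAAT on either strand was present in 34.6% of the 35116 RefSeq windows of this length. Among the 10 windows used, none of them of PLAT, it was found in 2. The upstream PLAU window held a single CCAAT, 182 bases before the start, and the downstream PLAU window held none. The downstream SERPINE2 window held 7, in 3 pairs of CCAAT and ATTGG plus a last ATTGG, with the CCAAT copies spaced by 77 bases, a tandem repeat that is visible in the sequence above; 8 of the 35116 windows, or 0.0228%, held as many. That start lies 7840 bases inside the gene from its outermost annotated start, and the upstream SERPINE2 window held none. TGANTCA, present in 7.71% of all windows, was found in SERPINB2 (102 bases before the start), SERPINB5 (146) and PLAUR (186), and TATAAA, present in 11.5%, in SERPINB2, 30 bases before the start. The windows of SERPINA1 and SERPINA3 held none of the 3 motifs. Binding was not measured in these libraries.

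Each gene was then compared between the lines. A gene was called changed at an adjusted p under 0.01 and a log2 fold change beyond 1 in either direction (edgeR's quasi-likelihood test, Benjamini-Hochberg over the 17108 genes tested). In NF-YAl against Empty, 2 of the 8 genes were called lower (PLAT and SERPINA1), where 3.5% of all genes tested were, and 0 were called higher, where 4.76% were; the 8 genes had a median log2 fold change of -0.44, against 0.011 over all genes. In NF-YAs against Empty, 2 were called higher (SERPINA1 and SERPINA3; 5.44% of all genes) and 2 lower (SERPINE2 and SERPINB5; 3.9%), with a median of 0.05 against -0.003. In NF-YAl against NF-YAs, 2 were called lower (SERPINA1 and SERPINA3; 2.86% of all genes) and 0 higher (1.74%), with a median of -0.35 against 0.018. All 8 passed the filter on low counts, SERPINA3 only through NF-YAs, where it was highest, so its call there is partly built into the filter and its share in these counts carries no weight. Beside the counts of 0 in edgeR, 1 gene (SERPINB2) was higher in NF-YAl than in Empty at an unadjusted p under 0.05 and 3 genes (SERPINE2, SERPINB2 and SERPINB5) were higher than in NF-YAs, and DESeq2 called 0 in both cases. For the unadjusted p the share of all genes is not given here, so these numbers cannot be weighed against it. Both comparisons with Empty rest on the same 3 control libraries. In bulk RNA, fewer cells that express a gene and less RNA per cell cannot be told apart.

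**Figure D1:**
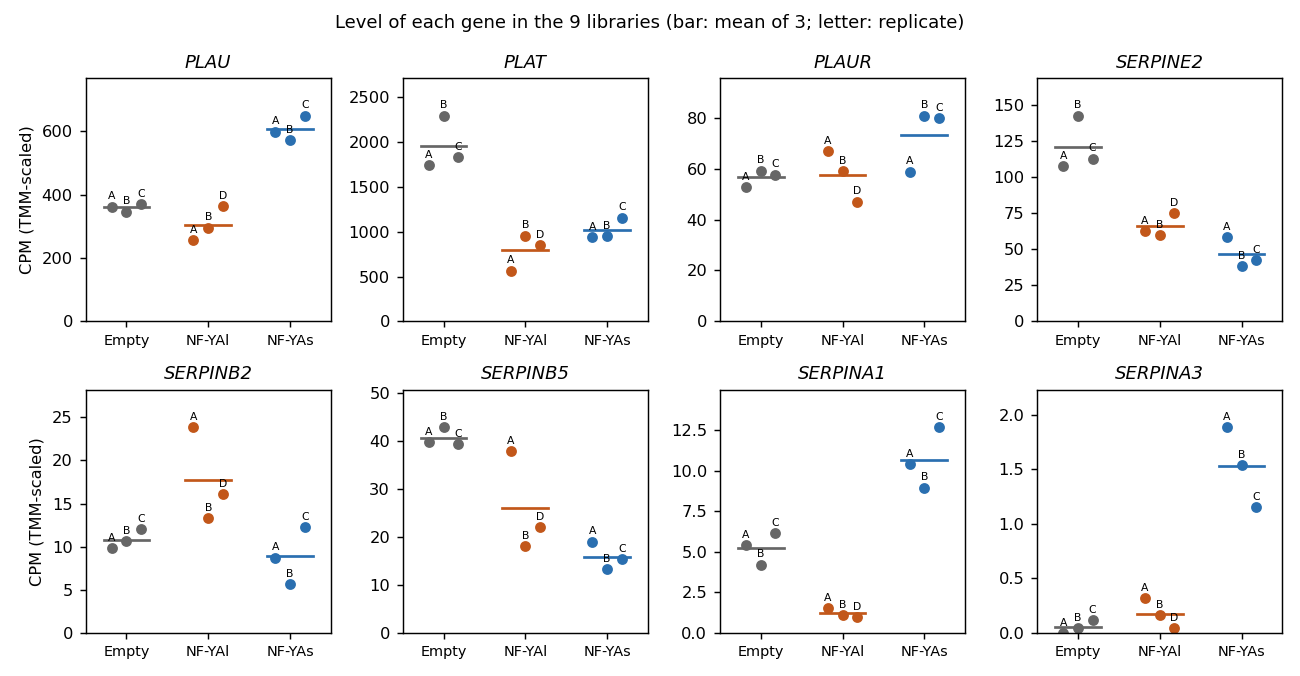
Level of the 8 genes in each of the 9 libraries, in CPM on linear axes that start at 0, with each replicate's letter and a bar at the mean of 3. SERPINA1 in NF-YAl (0.945 to 1.54 CPM) lies below every Empty library and in NF-YAs (8.96 to 12.7 CPM) above, while PLAT and SERPINE2 are lower in both NF-YA lines. SERPINB5 is lower in NF-YAs, and in NF-YAl its replicate A is close to Empty.

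**Figure D2:**
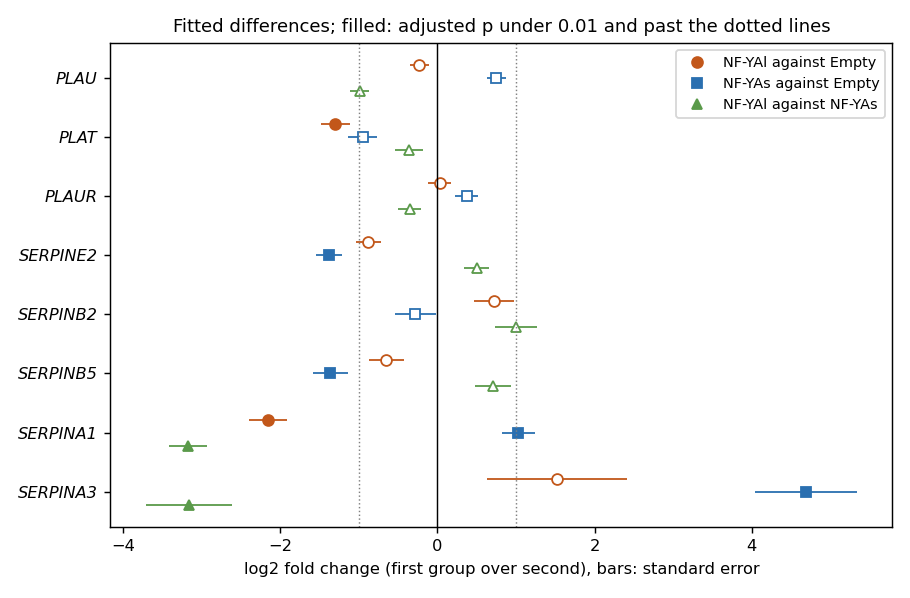
Fitted log2 fold change with its standard error for the 8 genes in the 3 comparisons, filled where the gene was called, with dotted lines at the fold limit of 1. PLAU (0.75) and PLAT (-0.95) point in opposite directions in NF-YAs, and SERPINA1 has filled points on both sides of 0.

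PLAU (chromosome 10, 75668935 to 75677254, plus strand) was higher in NF-YAs than in the other lines. Its CPM was 362, 346 and 370 in Empty A, B and C, 257, 296 and 363 with NF-YAl A, B and D, and 598, 571 and 649 with NF-YAs A, B and C. The NF-YAs libraries were above all others without overlap, while NF-YAl reached into the Empty range through library D. Against Empty the log2 fold change was 0.75 ± 0.122 (SE, adjusted p = 0.000518) in NF-YAs, a 1.69-fold level that is short of the fold limit, and -0.23 ± 0.122 (adjusted p = 0.165) in NF-YAl. Between the lines NF-YAl was lower by a log2 fold change of -0.99 ± 0.123 (adjusted p = 0.000214), at the edge of the limit: it was called without NF-YAl D (-1.13), without NF-YAs A (-1.0) or without NF-YAs B (-1.03). C10orf55, annotated on the opposite strand of PLAU, had 6.09 to 15.1 CPM, and whether the counting used strand is not given in the sources used here. Of the 20 tested genes nearest to PLAU, 10 on each side, 19 had a log2 fold change below 0 in NF-YAs, with a median of -0.43, where PLAU itself had 0.75. In NF-YAl 17 of the 20 were below 0, with a median of -0.23, the same value as PLAU itself.

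PLAT (chromosome 8, 42032236 to 42065227, minus strand) was lower in both NF-YA lines. Its CPM was 1746, 2296 and 1831 in the Empty libraries, 567, 957 and 853 with NF-YAl, and 938, 952 and 1158 with NF-YAs. Every library of both NF-YA lines was below every Empty library, and the NF-YA lines overlapped each other. PLAT fell in NF-YAl by a log2 fold change of -1.30 ± 0.184 (adjusted p = 0.00023), a 2.47-fold lower level, and the value without NF-YAl D was -1.36. In NF-YAs the log2 fold change was -0.95 ± 0.182 (adjusted p = 0.00169), just short of the limit; leaving out Empty A (-1.02) or NF-YAs C (-1.05) brought it past. The difference between the lines was -0.36 ± 0.181 (adjusted p = 0.174). On the TPM scale, where NF-YAl D is raised, the log2 fold change in NF-YAl was -1.03 and the call was lost. The 20 nearest tested genes had a median of 0.09 in NF-YAl and 0.11 in NF-YAs.

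The share of PLAU among the activators was compared as well. Within each library, PLAU made up 22%, 17.1% and 21.6% of the summed TPM of PLAU and PLAT in Empty, 38.2%, 29.7% and 36.7% with NF-YAl, and 46.5%, 45.1% and 43.4% with NF-YAs. The groups did not overlap, with means of 20.2% ± 2.74, 34.9% ± 4.52 and 45.0% ± 1.58 (SD, n = 3), and since the share is a ratio within a library the noncoding RNA content of NF-YAl D does not enter it. The exact permutation test (two-sided) gave p = 0.1 for each of the 3 comparisons, the smallest value that 3 libraries against 3 allow. The share was chosen after the values of both genes had been seen.

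PLAUR (chromosome 19, 44150247 to 44174699, minus strand), which anchors urokinase to the cell surface, was not called in any comparison. Its CPM was 52.7, 59.2 and 57.6 in Empty, 66.8, 59.1 and 47 with NF-YAl, and 58.8, 80.8 and 79.9 with NF-YAs. The NF-YAl libraries lay on both sides of the Empty ones, and only NF-YAs B and C stood above all others. The log2 fold change against Empty was 0.03 ± 0.146 (adjusted p = 0.91) in NF-YAl and 0.37 ± 0.146 (adjusted p = 0.065) in NF-YAs.

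The transcripts of PLAUR were compared by their shares. RSEM divided the reads of the gene over 4 annotated transcripts, and the main one, of 1553 nt, held 64.3%, 61.2% and 66.2% of the gene's TPM in Empty, 78.2%, 73.1% and 71.1% with NF-YAl, and 66.4%, 67.0% and 73.5% with NF-YAs. Every NF-YA library was above every Empty library, although NF-YAs A at 66.4% and Empty C at 66.2% nearly met. The transcript of 1434 nt made the counterpart, at 26.2% to 30% in Empty, 13.8% to 19.2% with NF-YAl and 17.5% to 25.0% with NF-YAs. The main transcript's share was higher than in Empty by 10.3 percentage points in NF-YAl and by 5.1 in NF-YAs, each with an exact permutation p = 0.1 (two-sided), the smallest possible, and adjusted p = 0.75 over the 15 such tests on 5 genes. The other 4 genes with at least 2 measurable transcripts showed no shift beyond the spread: the main transcript of PLAU, 2381 nt long, held 85.6%, 83.9% and 85.0% on average in Empty, NF-YAl and NF-YAs, that of SERPINE2 76.9%, 75.7% and 77.8%, and that of SERPINB2 94.5%, 93.6% and 94.9%. SERPINA1 has 11 annotated transcripts, and with 23 to 29 counts in each NF-YAl library its share in the 3199 nt transcript ran from 0% to 52.6% within that group, too loose to compare. PLAT was nearly all in its transcript of 3221 nt, at 95.8% on average, and SERPINB5 and SERPINA3 have a single annotated transcript.

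**Figure D3:**
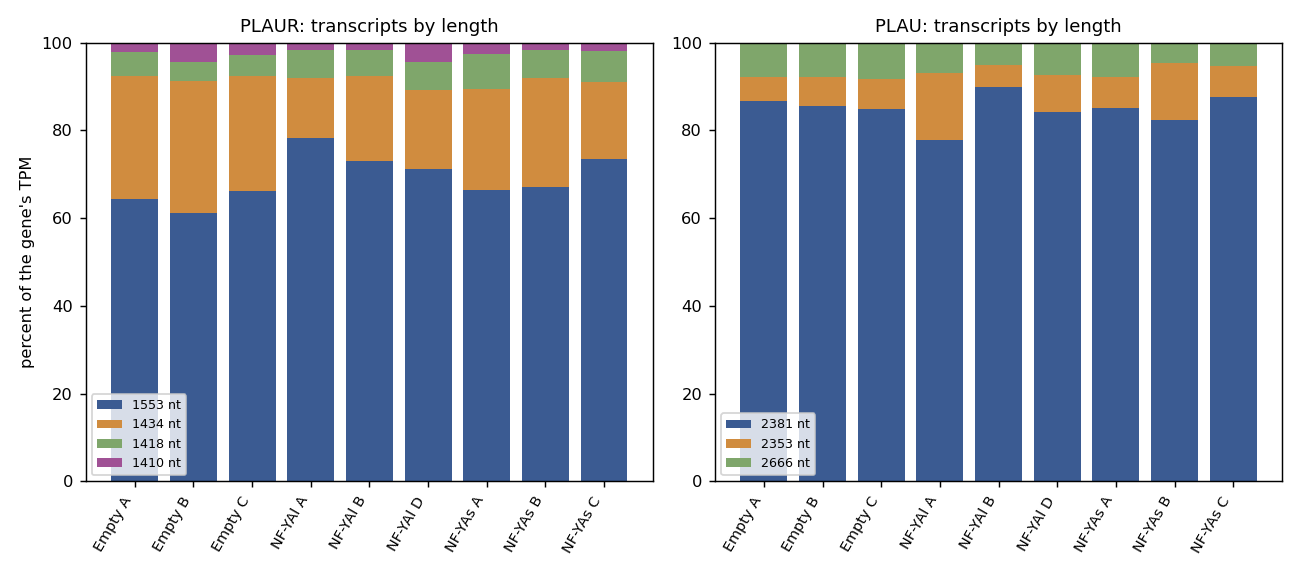
Percent of the gene's TPM in each annotated transcript, named by its length, as stacked bars for the 9 libraries, for PLAUR (left) and PLAU (right). The 1553 nt PLAUR transcript holds 61.2% to 66.2% in Empty and 71.1% to 78.2% with NF-YAl, while the main PLAU transcript has no such step.

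SERPINE2 (protease nexin-1, an inhibitor of thrombin and of both activators; chromosome 2, 224839762 to 224904035, minus strand) was lower in both NF-YA lines. Its CPM was 108, 143 and 113 in Empty, 62.6, 60.2 and 75.1 with NF-YAl, and 58.5, 38.7 and 42.5 with NF-YAs. The 3 groups did not overlap. SERPINE2 fell in NF-YAs by a log2 fold change of -1.38 ± 0.163 (adjusted p = 5.31e-05), a 2.61-fold lower level that was called under every alternative tried. In NF-YAl the value was -0.88 ± 0.16 (adjusted p = 0.00133), under the fold limit, and -0.98 without NF-YAl D. The direct difference of 0.50 ± 0.161 was not called (adjusted p = 0.0409). The 20 nearest tested genes had medians of -0.04 in NF-YAl and 0.09 in NF-YAs.

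SERPINB2 (plasminogen activator inhibitor type 2; chromosome 18, 61538926 to 61571122, plus strand) was the sole inhibitor among the 8 with its highest values in NF-YAl. Its CPM was 9.81, 10.6 and 12 in Empty, 23.9, 13.3 and 16.1 with NF-YAl, and 8.73, 5.62 and 12.3 with NF-YAs. The NF-YAl libraries lay above all others, the highest of them NF-YAl A, and NF-YAs spread across the Empty range. The log2 fold change of NF-YAl was 0.72 ± 0.258 against Empty (adjusted p = 0.0513) and 1.0 ± 0.263 against NF-YAs (adjusted p = 0.0178). Neither was called, but without NF-YAs C the value against NF-YAs was 1.31 and was called. The 20 nearest tested genes had medians of 0.3 in NF-YAl and -0.11 in NF-YAs against Empty. In NF-YAl against NF-YAs their median was 0.42.

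SERPINB5 (chromosome 18, 61144191 to 61172318, plus strand), in the same cluster, was lower in NF-YAs. Its CPM was 39.7, 42.9 and 39.3 in Empty, 37.8, 18 and 22 with NF-YAl, and 19, 13.2 and 15.3 with NF-YAs. All NF-YAs libraries were below the Empty ones, whereas NF-YAl A was close to Empty and NF-YAl B and D were close to NF-YAs. SERPINB5 fell in NF-YAs by a log2 fold change of -1.36 ± 0.228 (adjusted p = 0.000673), a 2.56-fold lower level. In NF-YAl the value was -0.65 ± 0.222 (adjusted p = 0.041), and without NF-YAl A it was -1.02 and called, so here a single library decides. On log2(TPM + 1) the NF-YAs value was -1.1 and was not called. The 20 nearest tested genes had medians of 0.46 in NF-YAl and -0.12 in NF-YAs.

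SERPINA1 (chromosome 14, 94843084 to 94857030, minus strand) was the sole gene of the 8 called in all 3 comparisons, and it was called in opposite directions in the lines. Its CPM was 5.41, 4.21 and 6.14 in Empty, 1.54, 1.10 and 0.945 with NF-YAl, and 10.4, 8.96 and 12.7 with NF-YAs. These are 129, 106 and 156 counts, 29, 27 and 23 counts, and 194, 180 and 275 counts. The 3 groups were separate, NF-YAl lowest and NF-YAs highest. SERPINA1 fell in NF-YAl by a log2 fold change of -2.15 ± 0.242 (adjusted p = 4.65e-05), a 4.44-fold lower level, and rose in NF-YAs by 1.03 ± 0.207 (adjusted p = 0.00225), a 2.04-fold level. The direct difference was -3.17 ± 0.241 (adjusted p = 1.29e-05), or 9.03-fold. The value without NF-YAl D was -2.0 against Empty and -3.03 against NF-YAs. The rise in NF-YAs is close to the fold limit and was not called without Empty B (0.89) or without NF-YAs C (0.88). On log2(TPM + 1), a scale that shrinks differences between low levels, neither value against Empty was called (-0.91 and 0.88), and on log2(TPM + 0.1) the NF-YAs value (1.16) was not.

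SERPINA3 (chromosome 14, 95078721 to 95090392, plus strand), an acute-phase inhibitor of cathepsin G and chymase, was seen clearly in NF-YAs alone. Its counts were 0, 1 and 3 in the Empty libraries, 6, 4 and 1 with NF-YAl, and 35, 31 and 25 with NF-YAs. In CPM these are at most 0.118, at most 0.318, and 1.15 to 1.89. The NF-YAs libraries stood above all others, and Empty and NF-YAl overlapped near the level of 3 counts. Over the summed counts, 91 against 4, SERPINA3 was 28-fold higher in NF-YAs than in Empty (95% exact interval 10.6 to 105, counting error only), and the edgeR adjusted p was 0.00016. Against NF-YAl, with 11 counts, the ratio was 9.27 (4.94 to 19.2, edgeR adjusted p = 0.00181). SERPINA3 passed the filter only through NF-YAs, where it was highest. Its calls in NF-YAs are therefore partly built into the filter, and these adjusted p-values carry that limit. NF-YAl and Empty could not be told apart at this depth (ratio 3.03, interval 0.896 to 13; adjusted p = 0.222).

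The order of the 8 genes by TPM, which corrects for transcript length, differed between the lines. In Empty it was PLAT (713 ± 95.4 TPM, SD, n = 3), PLAU (180.0 ± 31.3), SERPINE2 (64.2 ± 8.58), PLAUR (46.6 ± 4.92), SERPINB5 (18.4 ± 2.81), SERPINB2 (6.80 ± 0.675), SERPINA1 (1.91 ± 0.484) and SERPINA3 (0.0367 ± 0.0404), with no overlap between neighbours. In NF-YAl and NF-YAs PLAUR stood above SERPINE2, at 58.1 against 45.8 TPM in NF-YAl, where the libraries overlapped, and at 67.3 against 28.2 in NF-YAs, where they did not. PLAT remained first in both, at 371 ± 164 TPM in NF-YAl, overlapping PLAU at 201 ± 103, and at 416 ± 29.1 TPM in NF-YAs, above PLAU at 341 ± 26.6. SERPINB5 and SERPINB2 overlapped in both NF-YA lines, and SERPINB2 and SERPINA1 (6.28 and 4.34 TPM) also in NF-YAs. The wide SDs of NF-YAl hold the raised TPM of library D.

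For the called genes with at least 1 CPM on average, the genes with the most similar profile over the 9 libraries were sought by Pearson's r of log2 CPM. These are 9 libraries in 3 groups, so group differences make up most of each r, and the values are descriptions. PLAT was most like MYO1C (r = 0.991) and NUDT22 (0.988), SERPINE2 like TWSG1 (0.982) and DDX50 (0.982), and SERPINB5 like GPC4 (0.976) and BHLHE41 (0.976). Among the genes like SERPINA1 was IL31RA (0.984), a cytokine receptor subunit.

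Of 28 other genes of the plasminogen system (the zymogen, further inhibitors, receptors, activators of pro-urokinase and substrates), 17 passed the filter. In NF-YAl against Empty 2 were called higher (MRC2 and SERPINI1) and 0 lower, where 4.76% and 3.5% of all genes tested were. In NF-YAs against Empty 2 were called higher (MRC2 and THBS1) and 0 lower, beside 5.44% and 3.9% of all genes. In NF-YAl against NF-YAs 0 were called higher and 1 lower (THBS1), beside 1.74% and 2.86%. At an unadjusted edgeR p under 0.05, 5 genes were lower in NF-YAl and 3 in NF-YAs than in Empty, and 3 were higher in NF-YAl than in NF-YAs; DESeq2 called 0 in each of these directions. Without the fold limit, 7 genes of NF-YAl and 5 of NF-YAs were called against Empty. The share of all genes at either of these thresholds is not given here, so these numbers cannot be weighed against it. In the order of the comparisons above, their median log2 fold changes were 0.04, 0.17 and -0.04, against 0.011, -0.003 and 0.018 over all genes tested.

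The zymogen itself was almost absent. PLG had 0 counts in all Empty libraries, which allows up to 3 counts in each. It had 4, 3 and 10 counts with NF-YAl and 0, 0 and 6 with NF-YAs, and did not pass the filter. Of the fibrinogen chains FGA and FGG had at most 2 counts. The third chain, FGB, had 17, 10 and 19 counts in Empty, 33, 29 and 25 with NF-YAl and 13, 17 and 12 with NF-YAs, with NF-YAl above both other groups, and its log2 fold change of 1.07 ± 0.343 in NF-YAl was not called (adjusted p = 0.0311). Transcripts of PLG were therefore not detectable in Empty at this depth. Protein in the medium was not measured.

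Among the inhibitors, SERPINI1 (neuroserpin), a brain inhibitor of tissue-type activator, rose in NF-YAl by 1.21 ± 0.205 on the log2 scale (edgeR adjusted p = 0.000806). In NF-YAs its log2 fold change was 0.58 ± 0.209 (adjusted p = 0.047), also above 0 but not called. The direct difference of 0.63 ± 0.202 was not called either (adjusted p = 0.0411).

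The surface partners went in both directions. MRC2, the collagen receptor that associates with PLAUR, stood at 96.3, 146 and 108 CPM in Empty, 369.6, 296 and 221 with NF-YAl and 269, 282 and 272 with NF-YAs, with both NF-YA lines above Empty without overlap. MRC2 rose by a log2 fold change of 1.34 ± 0.181 in NF-YAl (adjusted p = 0.000176) and of 1.23 ± 0.181 in NF-YAs (adjusted p = 0.000262). The most abundant of the list were the plasminogen receptors ENO1 and ANXA2. ANXA2 had log2 fold changes of -0.71 in NF-YAl and -0.52 in NF-YAs, and S100A10, its partner in the annexin A2 tetramer, of -0.89 and -0.99 (adjusted p = 6.37e-05 and 2.65e-05), all short of the fold limit; ENO1 had -0.52 and -0.15. THBS1 (thrombospondin-1), a matrix protein that binds plasminogen, stood at 53.3, 56.2 and 49.7 CPM in Empty, 126, 74.7 and 69.7 with NF-YAl and 265, 250.1 and 263 with NF-YAs. The 3 groups did not overlap, and THBS1 rose in NF-YAs by 2.29 ± 0.188 (adjusted p = 4.47e-06).

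**Figure D4:**
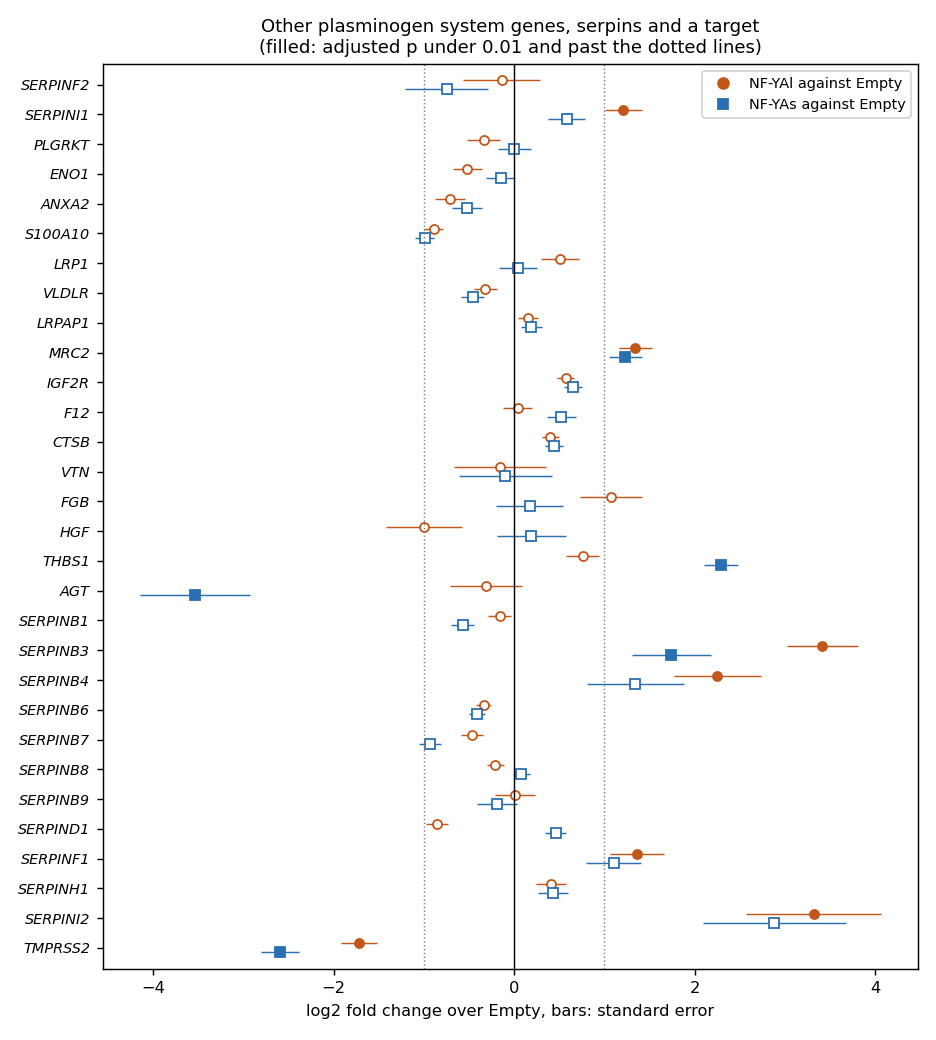
Log2 fold change over Empty, with its standard error, for the tested genes of the plasminogen system, the other serpins and the one tested protease target; filled points were called. SERPIND1 has a value below 0 in NF-YAl and above 0 in NF-YAs, MRC2 is called in both lines, and AGT lies far below 0 in NF-YAs only.

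Of 30 other serpins 14 passed the filter, and 3 genes (SERPINF2, SERPINA5 and SERPINI1) also belong to the list above. In NF-YAl against Empty 5 were called higher (SERPINB3, SERPINB4, SERPINF1, SERPINI1 and SERPINI2; 4.76% of all genes) and 0 lower (3.5%). In NF-YAs against Empty 1 was called higher (SERPINB3; 5.44% of all genes) and 1 lower (AGT; 3.9%). Between the lines 2 were higher in NF-YAl (AGT and SERPINB3; 1.74%) and 1 lower (SERPIND1; 2.86%). SERPINB4 reached the filter's limit of 0.442 CPM in the NF-YAl libraries alone, SERPINB3 and SERPINI2 in NF-YA libraries alone, and AGT in Empty and NF-YAl alone, so these calls are partly built into the filter and the counts that hold them carry no weight. Their median log2 fold changes were -0.07, 0.26 and 0.43, against the same 0.011, -0.003 and 0.018. Beside the 0 lower in NF-YAl, 4 were lower at an unadjusted edgeR p under 0.05 and 0 by DESeq2. The share of all genes at that unadjusted p is not given here. The count of 5 called higher fell to 2 without Empty C and to 3 without Empty A or NF-YAl B. In NF-YAs the call of SERPINB3 was lost without Empty A, Empty C, NF-YAs A or NF-YAs C. Between the lines, 3 serpins were called in all, and 1 (SERPIND1) without NF-YAl B, NF-YAs A or NF-YAs C. The share of all genes called with a library left out is not given here either. The 4 genes other than SERPINI1 have few counts in Empty, between 0 and 41 per library. SERPINF1 (pigment epithelium-derived factor) had 41, 20 and 32 counts there, 81, 72 and 61 with NF-YAl and 50, 56 and 57 with NF-YAs, and SERPINI2 (pancpin) had 0, 4 and 1, then 11, 29 and 9, then 6, 15 and 11. In both genes the NF-YA lines overlapped each other and lay above Empty, and in NF-YAs neither passed (adjusted p = 0.013 and 0.0135).

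SERPINB3 and SERPINB4, the squamous cell carcinoma antigens, are neighbours on chromosome 18. SERPINB3 had 4, 10 and 6 counts in Empty, 45, 66 and 87 with NF-YAl and 20, 10 and 25 with NF-YAs, and rose in NF-YAl by a log2 fold change of 3.41 ± 0.393 (adjusted p = 5.57e-05). SERPINB4 had 2, 6 and 2, then 9, 18 and 18, then 7, 5 and 9 counts. SERPINB3 reached the filter's limit in NF-YA libraries alone and SERPINB4 in NF-YAl libraries alone. Their calls are therefore partly built into the filter. The genes are near-identical copies, so RSEM's division of reads between them is uncertain, and SERPINB11 overlaps SERPINB3 on the opposite strand.

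SERPIND1 (heparin cofactor II) had, like SERPINA1, its lowest values in NF-YAl and its highest in NF-YAs: 30.1, 34.3 and 39.8 CPM in Empty, 18.9, 20.7 and 17.7 with NF-YAl, and 44.9, 45.9 and 52.3 with NF-YAs. The groups were separate, and the direct difference was -1.32 ± 0.123 (adjusted p = 3.71e-05). AGT (angiotensinogen, a serpin without inhibitor function) had 17, 20 and 25 counts in Empty, 7, 18 and 21 with NF-YAl, and 2, 0 and 2 with NF-YAs. Over the summed counts Empty was 12.6-fold above NF-YAs (exact interval 4.67 to 47.6, counting error only, and edgeR adjusted p = 0.000768). AGT reached the filter's limit in Empty and NF-YAl libraries alone, so this call is partly built into the filter. SERPINB6, SERPINB7 and SERPINB9, the most abundant of these 30 serpins by mean TPM, had log2 fold changes of -0.34, -0.47 and 0.01 in NF-YAl and of -0.41, -0.93 and -0.19 in NF-YAs. SERPIND1 lies within PI4KA, and AGT overlaps COG2, both on the opposite strand, and if the counting did not use strand the reads of such pairs cannot be told apart. The same holds for THBS1 with FSIP1 and for TMPRSS2 with MX1.

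In the genome the clade B genes of chromosome 18 and the clade A genes of chromosome 14 stand in rows, and neighbours differed. In the chromosome 18 row SERPINB5 and SERPINB7 had their highest levels in Empty, SERPINB2, SERPINB3 and SERPINB4 in NF-YAl, and SERPINB8 stood at 36.1, 31.1 and 38.2 CPM in Empty, NF-YAl and NF-YAs. In the chromosome 14 row most genes were at or near 0, and SERPINA4, SERPINA9, SERPINA11 and SERPINA12 had 0 counts in all libraries. Beside SERPINA1 and SERPINA3, SERPINA6 (corticosteroid-binding globulin) had 0, 1 and 1 counts in Empty, 1, 0 and 0 with NF-YAl and 9, 4 and 12 with NF-YAs, a sum of 25 against 2 in Empty (ratio 15.4, exact interval 3.84 to 134, counting error only); it did not pass the filter and is named after its values were seen. The 20 tested genes nearest to SERPINA1 had a median log2 fold change of 0.17 in NF-YAl and 0.40 in NF-YAs, against -2.15 and 1.03 for SERPINA1 itself.

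**Figure D5:**
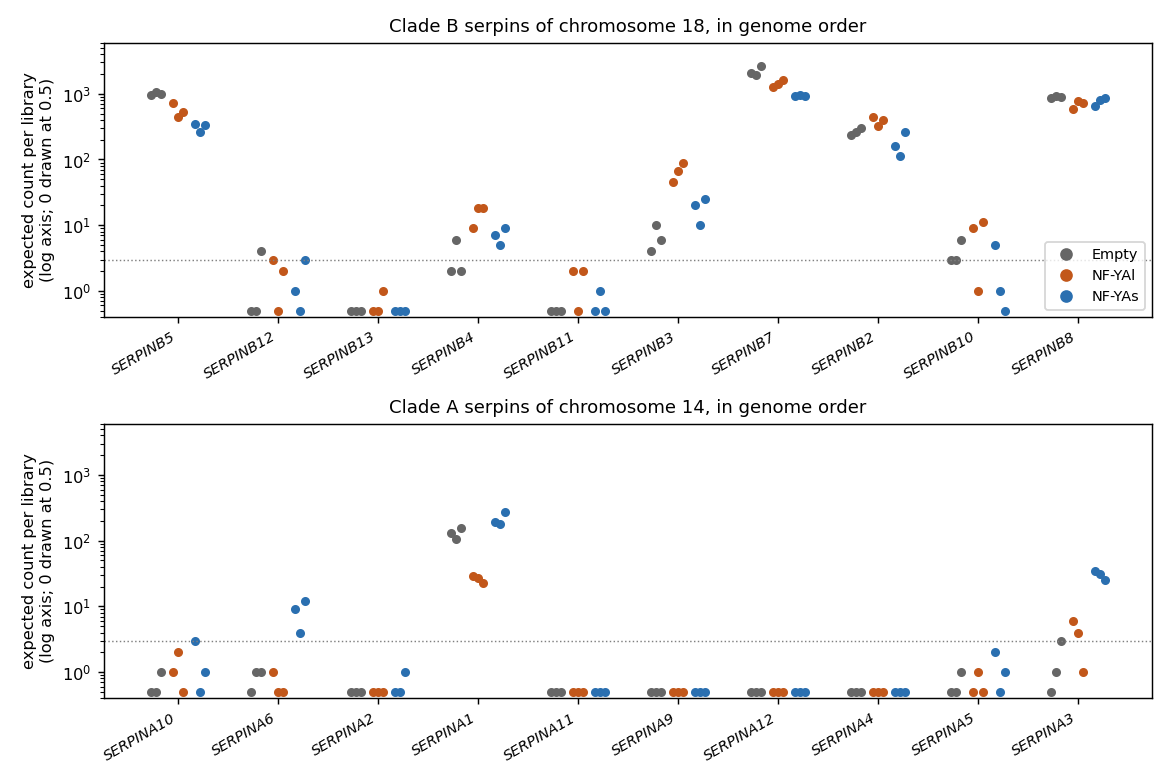
Expected counts per library, on a log axis with 0 drawn at 0.5, for the serpins of chromosome 18 (top) and chromosome 14 (bottom) in genome order; the dotted line marks 3 counts. SERPINA1, SERPINA3 and SERPINA6 each have their highest counts in NF-YAs, while SERPINB3, with up to 87 counts, is highest in NF-YAl.

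Apart from the activators, 9 proteases known as targets of serpins were looked up, and most had few or no counts. Of these 9 (KLK2, KLK3, ELANE, CTSG, PRTN3, CMA1, F2, PRSS8 and TMPRSS2) TMPRSS2 alone passed the filter, and the next in abundance, CMA1 and PRSS8, had mean levels of 0.244 and 0.192 TPM. TMPRSS2, a membrane serine protease of the prostate, stood at 11.7, 18.3 and 13.2 CPM in Empty, 4.4, 4.09 and 4.64 with NF-YAl, and 2.26, 2.89 and 2.03 with NF-YAs. The groups were separate, and TMPRSS2 fell by a log2 fold change of -1.72 ± 0.196 in NF-YAl (adjusted p = 5.27e-05) and of -2.59 ± 0.21 in NF-YAs (adjusted p = 4.10e-06).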

How the data were processed

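RNA-seq of PC3 MTSs was taken from the gene and transcript tables of 9 libraries, made from stranded total RNA. The authors aligned reads with bowtie2 within RSEM to RefSeq transcripts of GRCh37, and deposited estimated counts (expected counts, not normalized), TPM (corrected for transcript length) and the percent of each transcript in its gene. Their strand setting is not given in the sources used here. Expected counts were rounded, genes filtered (filterByExpr, a limit of 0.442 CPM in at least 3 libraries; 17108 of 27111 genes left), scaled by TMM and tested with edgeR 4.0.16 (R 4.3.3; all 9 libraries in a single quasi-likelihood fit; SE from the log2 fold change and F). P-values weigh each difference against the spread between these libraries. Each vector was carried by its own selected line, and the libraries are repeat experiments of that line. An effect of the isoform therefore cannot be told apart from other differences between the lines. Alternatives used DESeq2 1.42.0, limma 3.58.1 on log2(TPM + 1) or log2(TPM + 0.1), RLE scaling, other filters, a replicate block, other thresholds and each library left out. On simulated data for NF-YAl against Empty, edgeR recovered 200 of 200 changed genes with 2 false calls among 16906 genes. The median absolute log2 fold change there was 2.02. Recovery of genes near the fold limit of 1 or with few counts was not tested separately. The 8 genes and all lists were chosen with earlier results of these data known; some genes of the lists are not reported here and were left out of their counts. Named beside the 8 were, from each list, the called genes and the 3 with the highest mean TPM; PLG, the fibrinogen chains, SERPINB8 and the other clade A genes of chromosome 14 lie outside this rule and were named after their values were seen. Gene positions are from GENCODE on GRCh37, and start windows from RefSeq (GRCh38.p14 table), placed on GRCh37 by exact match. Depth was 18076979 to 27163976 counts; intervals cover counting error only.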

Additional observations from a re-analysis of the deposited data

Results flagged for a closer look

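Among the genes described, 6 differed between NF-YAl and NF-YAs by the direct test of their difference (edgeR, adjusted p under 0.01 and a log2 fold change beyond 1). SERPINA1 (-3.17) and SERPINA3 (-3.16) were lower in NF-YAl, as were THBS1 (-1.53) and SERPIND1 (-1.32). SERPINB3 (1.66) and AGT (3.23) were higher in NF-YAl. SERPINA1 and SERPIND1 had values below Empty in NF-YAl and above Empty in NF-YAs in all 3 libraries of each line, and of these SERPINA1 alone was called against Empty in both. SERPINA3 reached the filter's limit in NF-YAs libraries alone, and AGT in Empty and NF-YAl libraries alone. SERPINB3 reached it in both NF-YA lines but not in Empty. These calls are partly built into the filter, and the count of 6 that holds them carries no weight. SERPINA3 and AGT also rest on few counts, at most 35 and 25 in a library. With 3 libraries per group no library was tested as an outlier within its group.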

How the results depend on the processing

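Across 14 alternative fits of each comparison and 2 other thresholds, the log2 fold changes of SERPINE2 in NF-YAs and of SERPINA1 between the lines stayed called wherever they could be computed. Whether the letters of the replicates pair the libraries is not given in the labels, and the residual correlations do not settle it. Their mean was 0.0862 for the same letter and -0.0299 for different ones, and same-letter pairs ran from -0.0652 to 0.253. With a replicate block, 4 of the 8 genes were called in NF-YAl against NF-YAs in place of 2 (PLAU and SERPINB2 were added). In NF-YAl against Empty the block called 3 in place of 2 (SERPINE2, at -1.04, was added). For the other serpins it called 4 in NF-YAs against Empty in place of 2. SERPINB4 lost its call in NF-YAl against Empty, and SERPINB3 its call between the lines. The share of all genes called with the block is not given here, so these counts cannot be weighed against it.

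For the 8 genes, limma on log2(TPM + 1) called 0 in NF-YAl against Empty and 2 in NF-YAs against Empty, limma on log2(TPM + 0.1) called 1 in NF-YAl against Empty, and the filter of 10 counts in every library, which removes SERPINA3, left 1 in NF-YAl against NF-YAs. PLAU in NF-YAl against Empty reversed to 0.06 under both TPM fits; the cause was not tested, though NF-YAl D has the raised TPM given above. For the other plasminogen system genes, without the fold limit 7 and 5 were called in NF-YAl and NF-YAs against Empty. The share of all genes called under the alternatives of this paragraph is not given here. For the other serpins in NF-YAl against Empty, 2 were called with 10 counts required, 2 with log2(TPM + 1), 3 with only the 2 groups fitted and 8 with no fold limit; in NF-YAs against Empty, 4 with DESeq2, 5 with no filter, 0 with 10 counts required, 0 with log2(TPM + 1), 4 at an adjusted p under 0.05 and 5 with no fold limit; in NF-YAl against NF-YAs, 1 with 10 counts required and 1 with only the 2 groups fitted.

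Leaving out each library in turn gave 2 to 5, 1 to 3 and 1 to 4 called serpins in the 3 comparisons (NF-YAl against Empty, NF-YAs against Empty, NF-YAl against NF-YAs). The share of all genes called in these fits is not given here, so the ranges cannot be weighed against it. PLAUR in NF-YAl against Empty ranged from -0.09 to 0.16. The transcript share differences, in percentage points and in the same order of comparisons, ranged from -4.7 to 1.3, -1.9 to 0.7 and -4.1 to 1.9 for PLAU, from -4.8 to 1.4, -2.7 to 3.5 and -4.5 to 1.4 for SERPINE2, from -2.6 to 0.7, -2.1 to 2.4 and -3.3 to 1.2 for SERPINB2, and from -25.6 to 0.7, -14.1 to 5.3 and -21.1 to 5.2 for SERPINA1; those of PLAUR kept their direction. Counting each gene, comparison and alternative fit as a separate case, a call was lost in 8 cases and gained in 11, and the same gene can recur. Depth limits SERPINA3, AGT, SERPINI2 and the SERPINA1 transcripts, which rest on few counts.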
